A study of Homo sapiens with 6 samples.

Results

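MAF and the small MAF proteins are transcription factors of the basic leucine zipper class, and their genes were described here in LNCaP, a human line established from prostate cancer. The 4 genes MAF, MAFF, MAFG and MAFK were chosen by name, and all 4 were found among the 16000 genes of the deposited table. MAF was picked because its values spread widely between the libraries, so its levels are given as a description and carry no test. MAFF, MAFG and MAFK were taken as the small members of the same family. MAFA and NRL, large MAF genes like MAF, serve as relatives for comparison.

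LNCaP cells were labelled with ALDEFLUOR, a fluorescent assay of aldehyde dehydrogenase activity, sorted, and profiled by sequencing of polyadenylated RNA. The 10% brightest cells form the group ALDH high and the 10% dimmest the group ALDH low, with 3 libraries each. Both groups share the cell line and serum-containing RPMI medium, culture followed the sort, and no treatment is named. Nothing in the labels says that the libraries of a group came from separate sorts or cultures, so a p-value here reflects just how these samples scatter, which may be technical.

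MAF proteins bind DNA as dimers at a long palindrome called the MAF recognition element, which extends the AP-1 core with flanking GC bases. Large MAF proteins, MAF, MAFA and NRL among them, carry an activation domain and act in lineage differentiation, for example in lens, T cells, pancreatic beta cells and photoreceptors. Small MAF proteins (MAFF, MAFG and MAFK) lack that domain, so their homodimers repress. With CNC factors such as NFE2L2 (NRF2) they activate antioxidant response elements, and with BACH1 or BACH2 they repress the same elements.

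Libraries held from 23817310 to 30617873 recovered reads, listed rows only. The libraries mostly did not sort by label: the labelled groups stood apart without overlap in 6.99% of all 16000 genes. The split of libraries used below was taken from MAF itself, whose 3 highest were ALDH high 2, ALDH low 1 and ALDH low 3. These were all above, or all below, the other 3 in 24.35% of the 11506 genes averaging 100 or more normalized reads. Other splits were not counted in those genes. The library order of MAF, below, means this split with those 3 libraries above the other 3, without regard to ranks within each 3. Across genes, the deviations of ALDH high 2 and ALDH low 1 from their group means had a correlation of 0.56, and those of ALDH high 2 and ALDH low 2 one of −0.43. Whether the labels of the libraries numbered 2 were exchanged was not tested and cannot be told from these files, so every difference and every count of calls takes the labels as given. The members are therefore described by library as well as by group. The labelled cell type was checked against luminal prostate markers, and all 8 listed were in the table, led by KLK3 at a mean of 86108 normalized reads, with summed levels of 191157 to 205747 (ALDH high) and 186334 to 222442 (ALDH low). Normalized reads are a gene's reads divided by 1 size factor per library.

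MAF (ENSG00000178573, GRCh38 chromosome 16, 79585843 to 79600714, minus strand) has 3 annotated transcripts, whose exons cover 6976 bases. It had 319 normalized reads in ALDH high 1, 2288 in ALDH high 2 and 307 in ALDH high 3. In ALDH low 1, 2 and 3 it had 1792, 264 and 1792. In each group the library numbered 2 thus stood on the other side from its partners, high within ALDH high and low within ALDH low, and the groups overlapped completely.

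The counts behind these values were 305, 2508 and 269 reads (ALDH high) against 2068, 270 and 1673 (ALDH low). Exact 95% Poisson intervals, which cover counting error only, ran from 2200 to 2380 normalized reads in ALDH high 2 and from 233 to 297 in ALDH low 2. The intervals of ALDH low 1 (1715 to 1870) and ALDH low 3 (1707 to 1880) overlapped, and those of ALDH high 1 (285 to 357) and ALDH high 3 (272 to 347) lay partly over that of ALDH low 2. No interval of the 3 high libraries came near one of the 3 low libraries. The highest library lay 8.68-fold above the lowest. Both were picked as the extremes of a gene chosen for its spread, so no interval is given for the ratio. The coefficient of variation over the 6 libraries was 82.3%, against 2.92% from counting alone. These comparisons with counting error describe the values that chose MAF and are no test.

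**Figure D1:**
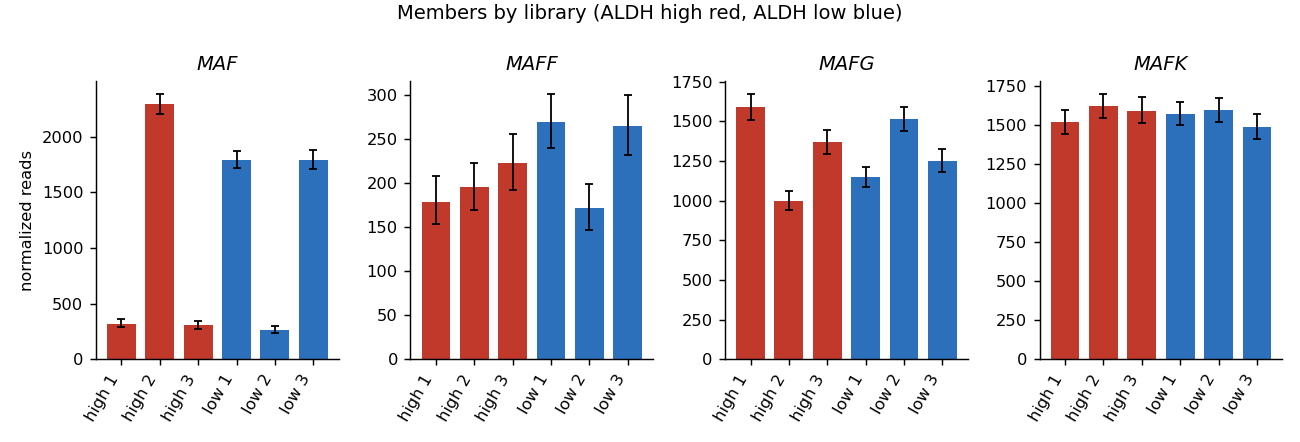
Normalized reads of MAF, MAFF, MAFG and MAFK (vertical axes, from 0) in the 6 libraries, with ALDH high in red and ALDH low in blue. Bars are single libraries and error bars are exact 95% Poisson intervals: MAF stands at 264 to 319 in 3 libraries and at 1792 to 2288 in the other 3, while MAFK stays between 1488 and 1620.

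As group means, MAF stood at 972 ± 1140 (ALDH high) against 1282 ± 882 (ALDH low) normalized reads (SD, n = 3 each). The SD was of the size of the mean, and the difference on the log2(normalized reads + 1) scale was −0.64. The authors' deposited table gives a log2 fold change of 0.40 for ALDH low over ALDH high. Left out singly, ALDH high 2 gave a difference of −1.59 and ALDH low 2 one of −1.56, and each of the other 4 libraries one of −0.15 to −0.18. With both libraries numbered 2 left out, the difference was −2.51. MAF was chosen from this arrangement of libraries, so no test is given for it. Fewer cells that express a gene and less of its RNA per cell cannot be told apart in bulk RNA.

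The spread of MAF was large for its level. Its SD over the 6 libraries was 1.49 on the log2(normalized reads + 1) scale, the 12th largest of 11506 genes with a mean of at least 100, whose median SD was 0.23. Spike-in RNAs of similar level, 11 with means from 300 to 3000, had SDs from 0.24 to 0.40. These SDs include shifts common to all spike-ins, whose share of reads ran from 0.40% (ALDH high 2) to 0.63% (ALDH high 1). The 7603 genes in the same range of means had a median SD of 0.22. The spread of MAF is what chose it, so it is given without a test.

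**Figure D2:**
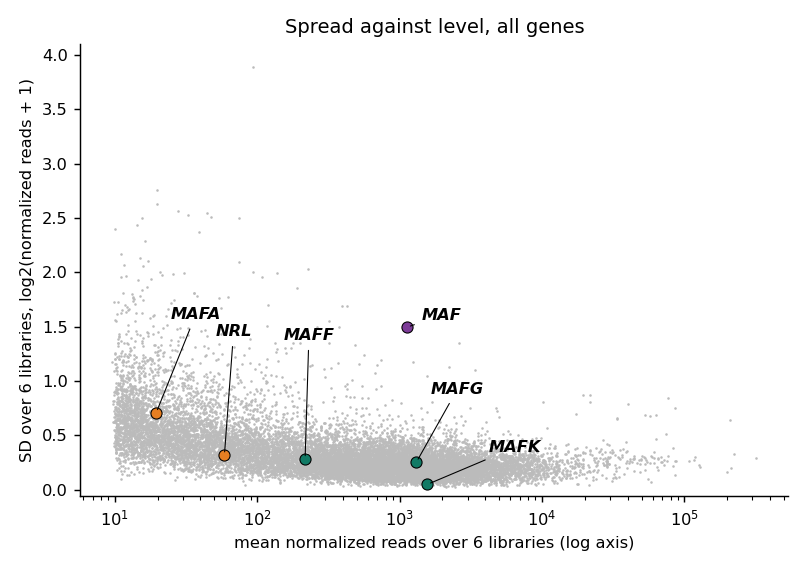
SD over the 6 libraries on the log2(normalized reads + 1) scale (vertical axis) against the mean normalized reads (horizontal log axis), 1 point per gene. MAF lies at an SD of 1.49, MAFK at 0.05 at a similar mean, and MAFF, MAFG and NRL between 0.25 and 0.31.

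Upstream of MAF, the RefSeq window of 250 bases before its start (GRCh38.p14, chr16:79600738-79600987, minus strand) is shown because MAF is the member that varied most between libraries. Capitals mark a match to TGCTGA, one arm of the MAF recognition element with its GC flank.

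MAF: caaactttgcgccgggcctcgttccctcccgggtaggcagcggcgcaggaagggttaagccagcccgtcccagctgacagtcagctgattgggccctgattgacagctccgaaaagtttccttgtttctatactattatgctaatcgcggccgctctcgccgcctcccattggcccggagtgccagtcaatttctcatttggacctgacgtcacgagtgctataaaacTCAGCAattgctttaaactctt

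The arm TGCTGA was found once, on the opposite strand, from 22 to 17 bases before the start. It occurs on either strand in 14.02% of 35116 RefSeq windows of the same length. The full palindromes, the MAF recognition elements of TPA type and of cyclic AMP type, were searched on both strands and were in none of the windows, and the AP-1 core TGANTCA (6.573% of windows) and the antioxidant response core TGACNNNGC (10.91%) were not in that of MAF. The arm is part of both palindromes, and a match is a description of the letters only.

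Within 1000000 bases of its start the table held 4 other genes, all with low counts. None passed the limma threshold, which 0.0% of all 16000 genes passed. AC009159.3, a lincRNA gene that starts 5088 bases upstream on the opposite strand, had 4, 14 and 8 reads (ALDH high) against 13, 7 and 17 (ALDH low). Its 3 highest libraries were those of MAF, at counts too low to fix even this order. The same order was shown by 12.44% of genes with a mean of at least 100, a level this gene did not reach. MAFTRR, a noncoding gene 169849 bases upstream, had 31.4, 36.5 and 28.6 normalized reads (ALDH high) against 12.1, 21.5 and 37.5 (ALDH low). DYNLRB2, a dynein light chain gene, averaged 16.0 normalized reads and the antisense gene AC105411.1 24.0. No exon of another annotated gene overlaps the exons of MAF.

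Genes whose profiles over the 6 libraries were nearest to that of MAF were ranked by the root mean square distance between centred log2 profiles, among 50 genes whose mean reached 100 and whose SD reached 1. EPHA7, an Eph receptor tyrosine kinase, was nearest, at a distance of 0.23. It had 103, 768 and 115 normalized reads (ALDH high) against 751, 82.0 and 453 (ALDH low). The next were PLA1A, a phospholipase (0.24), SOD3, the extracellular superoxide dismutase (0.37), PLPP1, a lipid phosphatase (0.38), CHRM3, a muscarinic acetylcholine receptor (0.39), and PTPN21, a tyrosine phosphatase (0.42). PLPP1, the most abundant of them, had 879, 3429 and 825 normalized reads (ALDH high) against 3367, 870 and 3972 (ALDH low).

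The profiles nearest to that of MAF with its sign turned were those of BMP5, a bone morphogenetic protein (0.21), NR2F1, an orphan nuclear receptor (0.23), and C2orf54 (0.24). QSER1 (0.29) and TSPAN7, a tetraspanin (0.30), were also near. C2orf54 had the highest level among them, with 4517, 631 and 4756 normalized reads (ALDH high) against 837, 3948 and 1028 (ALDH low). NR2F1 had 308, 47.4 and 328 (ALDH high) against 63.2, 265 and 53.6 (ALDH low). These genes were selected for their likeness to MAF or its reverse, so their shared library order follows from that choice.

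**Figure D3:**
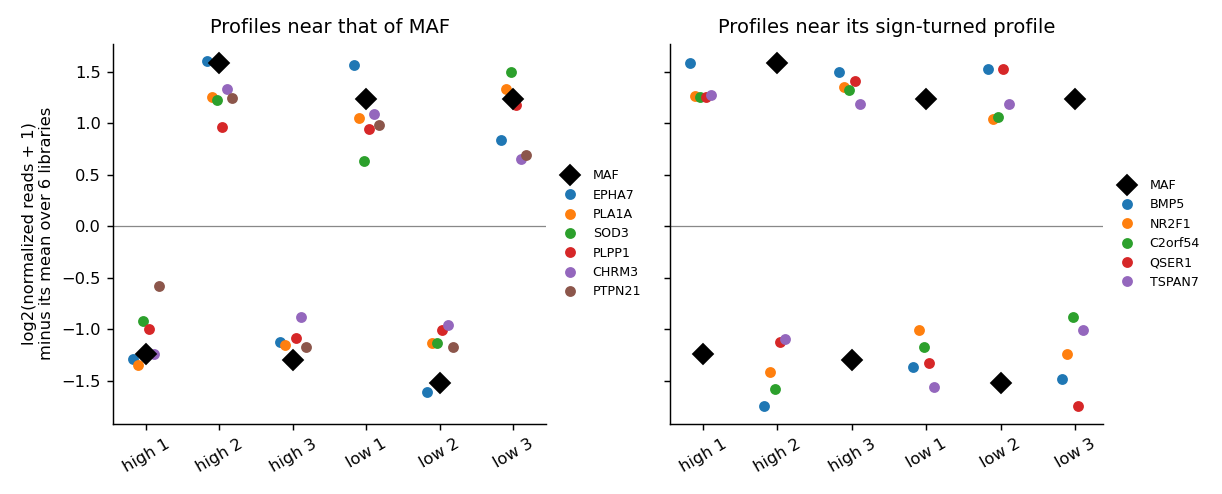
Log2(normalized reads + 1) minus its mean over the 6 libraries (vertical axis) by library (horizontal axis), for MAF (diamonds) with genes of near profile (left) and genes near its sign-turned profile (right). MAF and the genes on the left are above their means in library 2 of ALDH high and libraries 1 and 3 of ALDH low, and the genes on the right are below theirs.

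NRL and MAFA had smaller spreads than MAF, with SDs (log2) of 0.31 and 0.71 against 1.49. NRL (ENSG00000129535, chromosome 14), the rod photoreceptor factor, averaged 50.9 ± 4.89 and 66.9 ± 18.1 normalized reads. Its highest value, 87.8, was in ALDH low 3, and 9.412% of its exon bases overlap DCAF11 on the opposite strand. MAFA (ENSG00000182759, chromosome 8), the beta-cell factor, rested on 7 to 27 reads per library and averaged 16.3 ± 9.02 and 22.8 ± 5.33. The log2 differences of NRL (−0.36) and MAFA (−0.62) did not pass the limma threshold (adjusted p = 0.984 each), which 0.0% of all 16000 genes passed.

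Levels of different genes were compared as normalized reads per kilobase of annotated exon. On that scale MAF stood at 328, 257 and 257 in its 3 high libraries (ALDH high 2, then ALDH low 1 and 3), and at 45.8, 44.1 and 37.8 in the others (ALDH high 1 and 3, then ALDH low 2). MAFK, the steadiest member, had a mean of 351. The ratio of MAF to MAFK was 0.90, 0.73 and 0.77 in the former libraries and 0.13, 0.12 and 0.11 in the latter. MAF thus came near the level of MAFK in ALDH high 2 and lay far under it in ALDH high 1, ALDH high 3 and ALDH low 2.

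**Figure D4:**
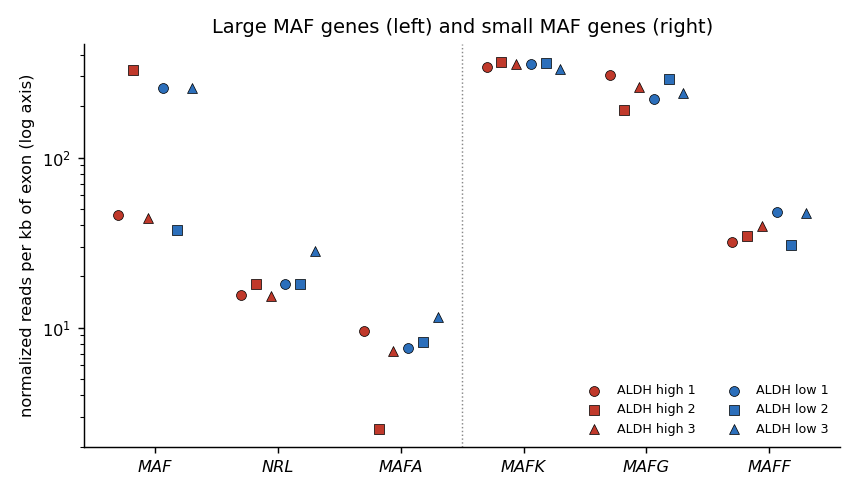
Normalized reads per kilobase of exon (vertical log axis) of the large MAF genes MAF, NRL and MAFA and the 3 small MAF genes, 1 point per library, with ALDH high in red, ALDH low in blue and a marker shape per replicate number. MAF falls into a level of 37.8 to 45.8 and one of 257 to 328, and MAFK holds the highest mean of those shown, 351.

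MAFK (ENSG00000198517, chromosome 7, 1530714 to 1543043, plus strand), the small MAF also known as the small subunit of the erythroid factor NF-E2, was the most abundant of the 4 members per kilobase. It had 1518, 1620 and 1593 normalized reads (ALDH high) against 1573, 1595 and 1488 (ALDH low). All 6 libraries lay within a 1.09-fold range, and the SD of 0.05 (log2) was higher than that of just 0.374% of genes with a mean of at least 100. Group means were 1577 ± 53.3 and 1552 ± 56.6 (SD, n = 3 each). The log2 difference was 0.02, with a 95% limma interval of −0.28 to 0.32 and a limma adjusted p of 0.989.

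The steadiness of MAFK contrasted with a gene that overlaps it. TMEM184A, on the opposite strand, shares 18.15% of the exon bases of MAFK, and it had 1461, 2279 and 1565 normalized reads (ALDH high) against 2140, 1483 and 1929 (ALDH low). TMEM184A thus followed the library order of MAF, as 12.44% of genes with a mean of at least 100 did, and MAFK did not. The labels leave unsaid whether the libraries kept strand, so reads in the shared stretch cannot be assigned to one of them with certainty. Of the 50-base words in MAFK transcripts, 17.07% also occur in those of TMEM184A. No such word is shared between any of the 4 members, so no exact copy of that length within the family could split their reads.

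MAFG (ENSG00000197063, chromosome 17, 81918270 to 81927714, minus strand), the broadly expressed partner of NFE2L2, had 1588, 1000 and 1367 normalized reads in ALDH high. In ALDH low it had 1147, 1515 and 1251. Its 3 lowest libraries were the 3 highest of MAF, an order that 11.92% of genes with a mean of at least 100 showed. The highest and lowest libraries differed 1.59-fold, far less than those of MAF. The 95% interval, 1.47 to 1.72, covers counting error only and makes no allowance for picking the extremes. Group means were 1318 ± 297 and 1304 ± 190 (SD, n = 3 each). Their log2 difference was −0.001, 95% limma interval −0.43 to 0.43 (limma adjusted p = 0.9996).

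MAFG has a divergent noncoding neighbour, MAFG-AS1, whose start lies 115 bases upstream on the opposite strand and whose exons do not overlap those of MAFG. MAFG-AS1 had 299.5, 229 and 339 normalized reads (ALDH high) against 181, 327 and 255 (ALDH low). It shared with MAFG the 3 highest libraries, ALDH high 1, ALDH high 3 and ALDH low 2, as did 11.92% of genes with a mean of at least 100. Its log2 difference between the groups was 0.21, with a 95% limma interval of −0.36 to 0.77. The window before the start of MAFG (GRCh38.p14, chr17:81927736-81927985, minus strand) is shown because it holds the starting point of MAFG-AS1 as well. No motif was found in it, so it has no capitals.

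MAFG: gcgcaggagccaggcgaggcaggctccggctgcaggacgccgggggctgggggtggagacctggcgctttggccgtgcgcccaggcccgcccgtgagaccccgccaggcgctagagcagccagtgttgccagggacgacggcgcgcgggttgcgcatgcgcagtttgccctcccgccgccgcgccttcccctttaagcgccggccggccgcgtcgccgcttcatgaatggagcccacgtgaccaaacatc

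The window was 73.2% G or C, against a median of 58.0% over all windows, and that of MAF 54.4%. SIRT7, a sirtuin gene downstream of MAFG on the same strand, shares 2.011% of the exon bases of MAFG and had 867, 684 and 758 normalized reads (ALDH high) against 712, 767 and 1036 (ALDH low). PYCR1, a proline synthesis gene, ranged from 12164 to 14433. Among 79 genes within 1000000 bases of the start of MAFG, none passed the limma threshold, and the same held for 47 around MAFF and 29 around MAFK. Over all 16000 genes 0.0% passed it, so these counts say nothing particular to the neighbours.

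MAFF (ENSG00000185022, chromosome 22, 38200767 to 38216511, plus strand), the small MAF that stress signals and cytokines are known to induce, was the least abundant small MAF gene. It had 179, 195 and 223 normalized reads (ALDH high) against 269, 172 and 265 (ALDH low). ALDH low 1 and ALDH low 3 were the 2 highest libraries and ALDH low 2 the lowest, so the groups overlapped. Group means were 199 ± 22.2 and 235 ± 55.0 (SD, n = 3 each). Their log2 difference was −0.22, 95% limma interval −0.73 to 0.30 (limma adjusted p = 0.984). Without ALDH low 2 the difference was −0.43, and it was still not past the threshold (limma adjusted p = 0.501). In a RefSeq window before the MAFF start on chromosome 22, an opposite-strand match to TGACNNNGC lay 122 to 114 bases upstream. A second window for MAFF held none of the motifs, and MAFK was not in that table.

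The summed level of the small MAF genes per kilobase ran from 590 (ALDH high 2) to 679 (ALDH low 2). Within the small MAF sum, MAFK took 50.3% to 61.6% and MAFF 4.51% to 7.73%, with MAFG making up the rest.

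Between the labelled groups, 0 of the 3 small MAF genes and 0.0% of the 16000 genes passed an adjusted p of 0.05 with limma. EdgeR, DESeq2 and limma-voom on recovered reads also called 0 genes. With 0 genes called by limma, the lists below could hold none past the threshold, whichever genes they named. Unadjusted p-values under 0.05 numbered 338 with limma, 352 with edgeR, 355 with DESeq2 and 337 with limma-voom, and MAFF, MAFG and MAFK were not among those of limma. No member had groups without overlap, which 6.99% of all genes had. The 3 small MAF genes had a median log2 difference of −0.001 beside 0.02 over all genes. For MAFF, MAFG and MAFK the intervals lay within a 2-fold change in either direction. Without both libraries numbered 2 the limma differences were −0.42 for MAFF (95% interval −0.93 to 0.10), 0.30 for MAFG (−0.10 to 0.70) and 0.02 for MAFK (−0.35 to 0.40). None of these 3 passed the threshold in that fit, which 107 genes (0.669% of all) did. Leaving out the libraries numbered 2 follows an arrangement seen in these same data. The intervals and calls of that fit are therefore a description and no independent test.

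The dimer partners of the small MAF proteins are the CNC and BACH factors, of which the table held 5 of 6 listed, with none past the threshold. NFE2L1, which controls proteasome genes, was the most abundant, with 5645, 8874 and 5816 normalized reads (ALDH high) against 9186, 5803 and 6235 (ALDH low). Its 3 highest libraries were those of MAF, with ALDH low 3 close to the rest. That order was shown by 12.44% of genes with a mean of at least 100. NFE2L2, the antioxidant regulator, varied little, at 1111 ± 114 and 1130 ± 31.1 (SD, n = 3 each). NFE2L3 averaged 626 ± 109 and 624 ± 114, and BACH1, a heme-responsive repressor, 416 ± 80.2 and 423 ± 166. BACH2, known from lymphocytes and with few reads here, averaged 21.7 ± 3.99 and 12.6 ± 7.70. Its log2 difference was 0.94, with a 95% limma interval of −0.27 to 2.15. It had 13.9, 19.5 and 4.28 normalized reads in ALDH low 1, 2 and 3, so the difference leans on ALDH low 3.

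**Figure D5:**
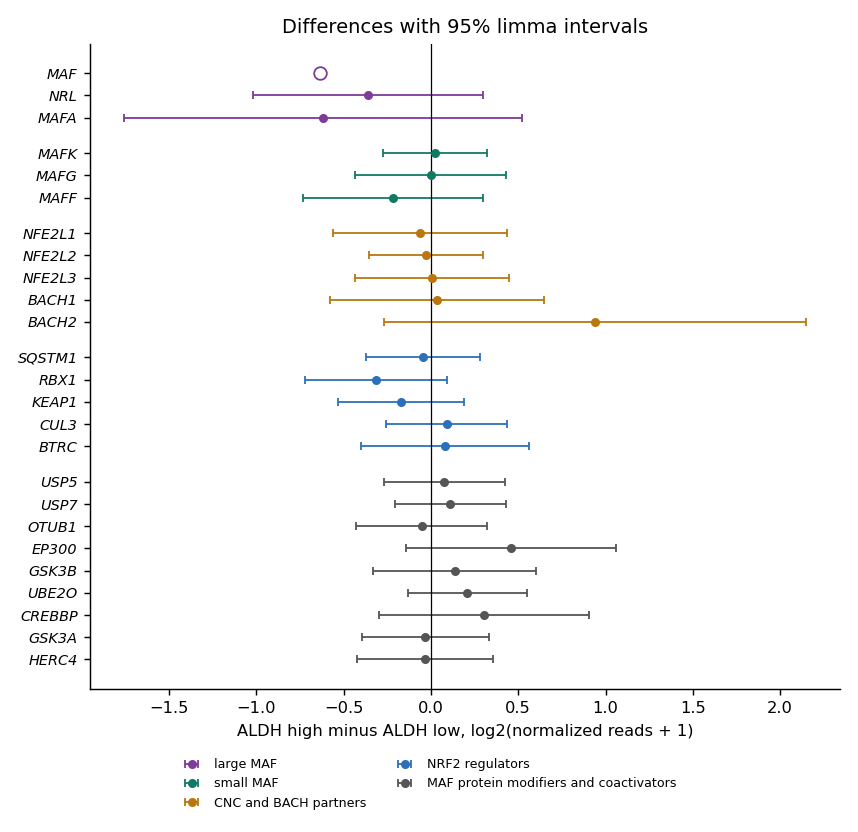
Differences between ALDH high and ALDH low on the log2(normalized reads + 1) scale (horizontal axis) for MAF genes, their CNC and BACH partners, NRF2 regulators and MAF protein modifiers. Points are limma estimates with 95% intervals, each of which includes 0, and the open circle of MAF (−0.64) has no interval because MAF was chosen for its spread.

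NRF2 regulators were all present, 5 of 5, with none past the threshold and a median difference of −0.04. KEAP1, the adaptor that marks NRF2 for degradation, had 3434, 4246 and 3653 normalized reads (ALDH high) against 4400, 3564 and 4845 (ALDH low). KEAP1 thus shared the library order of MAF, as did 12.44% of genes with a mean of at least 100. Its ubiquitin ligase subunits CUL3 and RBX1 averaged 926 ± 86.4 and 871 ± 93.5, and 3715 ± 347 and 4689 ± 1077 (SD, n = 3 each). SQSTM1, an autophagy receptor that binds KEAP1, averaged 7722 ± 225 and 7997 ± 935. BTRC, another ligase adaptor of NRF2, averaged 339 ± 77.8 and 318 ± 49.3.

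Of 30 listed antioxidant response targets 25 were in the table, 11 with differences above 0 and 14 below, a median of −0.04 and none past the threshold. FTH1, the ferritin heavy chain, led them at 28921 ± 2948 and 28565 ± 6058, followed by TKT, a pentose phosphate enzyme, at 27030 ± 2248 and 25888 ± 2797 (SD, n = 3 each). PRDX1, a peroxiredoxin, averaged 20833 ± 3358 and 21773 ± 2894. The widest spreads were in aldo-keto reductases with few reads, AKR1C3 at 15.7 ± 0.92 and 10.5 ± 7.21 and AKR1C1 at 19.3 ± 4.21 and 28.8 ± 7.82. The library order of MAF was shared by ME1 and its reverse by NQO1, 2 of the 25, beside 24.35% of genes averaging 100 or more normalized reads. AKR1C1 and AKR1C3, counted in the 25, lie below that mean.

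Members of AP-1, whose core site lies within the MAF recognition element, were found for 13 of 15 listed genes, with none past the threshold and a median difference of −0.03. JUN was steady at 3175 ± 159 and 3156 ± 155 (SD, n = 3 each), and JUND averaged 3785 ± 239 and 4256 ± 1589. ATF4, the integrated stress response factor, had 25174, 25506 and 25090 normalized reads (ALDH high) against 33281, 25638 and 35520 (ALDH low). It was the only AP-1 gene whose groups did not overlap, an outcome 3.32% of all genes showed in that direction, and its limma adjusted p was 0.984. FOS averaged 211 ± 85.9 and 204 ± 112, and FOSL1, with few reads, 21.4 ± 13.1 and 15.6 ± 8.29. The library order of MAF was shared by ATF3 and JDP2 and its reverse by FOSL1, 3 of the 13, beside the same 24.35%. JDP2, a repressor that dimerizes with JUN proteins, had 1013, 1773 and 961 normalized reads (ALDH high) against 1912, 910 and 2214 (ALDH low).

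Genes known as targets of large MAF proteins in myeloma, T cells and lens were represented by 3 of 12 listed genes, with none past the threshold. DEPTOR, an mTOR inhibitor, had 817, 589 and 828 normalized reads (ALDH high) against 582, 894 and 456 (ALDH low). Its 3 lowest libraries were thus the 3 highest of MAF, an order that 11.92% of genes with a mean of at least 100 showed. NUAK1, a kinase, had 366, 502 and 387 (ALDH high) against 361, 367 and 242 (ALDH low), and ITGB7, an integrin chain, ranged from 72.2 to 87.6 over all libraries. Neither followed the order of MAF. CCND2, a cyclin gene known as a MAF target in myeloma, was among the 9 not in the table.

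Regulators of MAF protein were all in the table, 9 of 9, 6 with differences above 0 and 3 below, a median of 0.11 and none past the threshold. The deubiquitinases USP5, USP7 and OTUB1 averaged 6806 ± 93.1 and 6503 ± 1003, 3992 ± 397 and 3689 ± 289, and 3154 ± 47.8 and 3323 ± 718 (SD, n = 3 each). The coactivator genes EP300 and CREBBP had the widest spread, both highest in ALDH high 2, at 3722 and 2084 normalized reads, and lowest in ALDH low 3, at 1286 and 853. The library order of MAF or its reverse was seen in 0 of the 9, beside the same 24.35%.

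MAF is also expressed by macrophages, lymphocytes and some endothelial cells, so their markers were counted. Of 10 leukocyte markers 1 was in the table, CD68, with 22.0, 16.4 and 32.0 normalized reads (ALDH high) against 19.9, 23.4 and 27.9 (ALDH low), and PTPRC, CD3E, CD4 and CD14 were not. Of 5 endothelial markers 1 was in the table, VWF, and PECAM1, CDH5, KDR and TEK were not. VWF had 240, 417 and 189 (ALDH high) against 386, 235 and 326 (ALDH low). Its 3 highest libraries were those of MAF, as in 12.44% of genes with a mean of at least 100. Its part in the spread of MAF was not tested. Of 6 fibroblast markers 2 were in the table, COL1A1 and PDGFRB, and COL1A2, DCN, LUM and THY1 were not. The sum of the 2 ran from 1539 to 1846 in ALDH high and from 881 to 1519 in ALDH low. It was mostly COL1A1, with a mean of 1437 beside 69.4 for PDGFRB. Neither COL1A1 nor PDGFRB overlapped between the groups, an outcome 3.67% of all genes showed in that direction, and neither passed the threshold. The lowest mean in the table was 9.65 normalized reads, so genes outside it may still have had reads.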

How the data were processed

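Per the submitters' processing notes, reads were processed with Trimmomatic 0.36, STAR 2.5.2b, featureCounts of Subread 1.5.2 and DESeq2, on GRCh38. The authors deposited 1 table, whose signal for each gene and library is reads divided by a size factor. It also holds the authors' log2 fold change, in which a positive value means more in ALDH low. A raw and an adjusted p-value, again from the authors, complete it. Dividing a library's values by their smallest step recovered whole reads for at least 99.99% of values within 0.02 of a read.

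The 46 spike-in rows were left out. Limma 3.58.1 (R 4.3.3) with a mean-variance trend was fitted on log2(normalized reads + 1) over all 16000 genes, with Benjamini-Hochberg adjustment and a threshold of 0.05. EdgeR 4.0.16, DESeq2 1.42.0 and limma-voom on recovered reads, other scalings, pseudocounts and filters, and left-out libraries were alternatives. The limma and edgeR fits were tested on simulated data. Coordinates, exon lengths and overlaps are from GENCODE release 29 (GRCh38), which matched 15939 genes, and upstream windows are from RefSeq (3 of 4 members matched).

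Members and lists were chosen with earlier results of these data known. The rule for names covers the members, the nearest profiles to MAF and to its reverse (6 each), list genes (all for up to 6 found, otherwise the 3 highest means and 2 largest SDs) and genes within 1000000 bases of a member. For MAFF, MAFG and MAFK most neighbours are given as counts only. ME1, NQO1, ATF3 and JDP2 were singled out after their values were seen. Some genes that the rule covers are not reported here.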

Additional observations from a re-analysis of the deposited data

Results flagged for a closer look

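Reads of ERCC spike-in rows, synthetic control RNAs outside the comparison of genes, made up 0.4868% of all reads and were present in every library. No group had the 4 libraries needed to look for a single outlying value.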

How the results depend on the processing

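The count of 0 genes between ALDH high and ALDH low held under 15 of 16 alternatives, among them each left-out library (0 to 0 genes), and became 107 genes without both libraries numbered 2. That last choice follows an arrangement seen in these same data. MAF kept its sign under all 16, from −0.15 to −2.51, and the last value, without both libraries numbered 2, was the only one to move by more than the spread between replicates. MAFF also kept its sign under all 16, from −0.10 to −0.43. MAFG, near 0, turned to 0.015 with edgeR and 0.015 with DESeq2, 0.044 with scaling by total reads, 0.30 without both libraries numbered 2, and ran from −0.15 to 0.19 with single libraries left out. MAFK ran from −0.0069 (without ALDH low replicate 3) to 0.051 with single libraries left out. The cause of these turns was not tested. Of the 12 genes ranked nearest to MAF or its reverse, 7 were kept with a minimum mean of 10 and 12 with TMM scaling. The replicate block called 0 genes and left the differences of MAF, MAFF, MAFG and MAFK at −0.64, −0.22, −0.001 and 0.02. Same-numbered libraries deviated from their group means with correlations across genes of −0.46, −0.43 and 0.14. The split of libraries that crosses the labels enters these values. They therefore cannot tell whether same-numbered libraries shared a sort or culture. MAFA and AC009159.3 rest on so few reads that depth limits their order. Scaling by total reads moved the median of all genes from 0.02 to 0.06. Unadjusted limma p-values under 0.05 numbered 80 (without ALDH high replicate 3) to 1697 (without ALDH low replicate 2) with single libraries left out, against 338 with all 6.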

Other observations

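The profiles nearest to those of the small MAF genes were ranked without a minimum SD, and the distance scales with a gene's own spread, so these distances are not to be set beside those for MAF. For MAFF the nearest were TMED3, EFNA1 and C4orf3, at root mean square distances of 0.07 each. EFNA1, an ephrin ligand, had 3021, 2831 and 3401 normalized reads (ALDH high) against 3965, 2683 and 3980 (ALDH low). For MAFG they were SAMD11 (0.05), FZD7, a Wnt receptor (0.05), and LETMD1 (0.06). FZD7 had 407, 278 and 377 normalized reads (ALDH high) against 326, 433 and 358 (ALDH low). For MAFK, PEX26, a peroxisome assembly factor (0.02), RIT1, a small GTPase (0.02), and FAM86C1 (0.02) were nearest, at levels that hardly varied. PEX26 ran from 1974 to 2195 normalized reads over the 6 libraries.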
